A study of Mus musculus with 18 samples.

Results

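The mitochondrial ribosomal protein genes were taken as all genes whose symbol in both deposited count tables was Mrpl or Mrps followed by a number and, at most, 1 of the letters a to c. This rule found 78 of 41079 genes, 49 of them named Mrpl and 29 named Mrps. All 78 had fragments in all 18 libraries and passed the filter on low counts, and together they held 0.232% to 0.387% of the fragments of a library.

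Libraries were RNA-seq of mouse bone marrow cells carrying the receptor cKit, a surface marker of blood stem and progenitor cells. The 6 groups of 3 libraries each were AE9a cells given C16, AE9a cells given RE, AE9a cells given DMSO (the solvent control), WT cells given C16, WT cells given RE and WT cells given DMSO. AE9a is a short splice form of the leukaemia fusion protein AML1-ETO, and how it was introduced, the age of the mice and the dose and duration of C16 and RE are not given in the sources used here. The study asked what inhibition of WDR5 and of MLL1 does to transcripts in both genotypes, and the labels do not say which compound acts on which protein.

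Mitochondrial ribosomes translate the few proteins that the mitochondrial genome encodes, all of them subunits of the respiratory chain or of the ATP synthase. Their RNA is made inside the organelle, but every protein of the ribosome is encoded in the nucleus, made in the cytosol and imported. The large subunit joins amino acids into a chain and the small subunit reads the messenger RNA. Some of the proteins have counterparts in bacterial ribosomes and others occur only in mitochondria.

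By these roles, 51 of the genes encode proteins of the large subunit and 26 proteins of the small subunit, and 48 have a bacterial counterpart while 29 are found only in mitochondria. Mrps18a and Mrps30 carry the small-subunit prefix but their proteins sit in the large subunit, and they were counted there. Mrps36 was counted in neither subunit, since its protein was later recognised as a subunit of the 2-oxoglutarate dehydrogenase complex.

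Library totals ran from 16053727 to 27207748 fragments. WT replicate 2 stood apart from WT replicates 1 and 3 under every treatment. Summed over 4 primary granule genes (Mpo, Prtn3, Ctsg and Elane), it had 8716 CPM under C16, 5249 CPM under RE and 7533 CPM under DMSO, against 1044 to 2148 CPM in the other 6 WT libraries. Summed over 8 megakaryocyte genes it had 316, 555 and 393 CPM, against 2598 to 10723 CPM in those 6. Kit, the gene of the receptor used for selection, was found in all libraries and ran from 59.6 CPM in WT DMSO replicate 2 to 1616 CPM in AE9a RE replicate 2. T and NK cell markers summed to at most 2.77 CPM in any library, and no marker of the 10 lists was at 0 in all libraries. CPM are counts per 1000000 fragments of a library, scaled by TMM factors over all 18 libraries. Nothing in the labels says that replicates came from separate mice, and the p-values describe the spread among these libraries, which may be technical. The genotypes came as separate tables, so genotype and batch cannot be told apart, and in bulk RNA fewer cells of a type and less RNA per cell cannot be told apart.

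The promoters of 5 of the genes are shown as examples of the group. Each is the stretch from 250 bases before to 50 bases after the gene's start, read 5′ to 3′ on the gene's own strand, from RefSeq's GRCm38.p6 annotation. Mrps22, Mrpl42 and Mrpl12 are among the 8 largest rises under C16 in AE9a cells, Mrpl52 is the gene that fell there, and Mrps18b holds letters of 2 of the motifs searched. Capitals mark letters that match CCGGAAG (the ETS motif that GABP binds), CATGCGC (NRF1), AAGATGGCG (YY1) or CACGTG (the E-box that MYC binds) on either strand.
Mrps22 (chr9:98601630-98601929, minus strand): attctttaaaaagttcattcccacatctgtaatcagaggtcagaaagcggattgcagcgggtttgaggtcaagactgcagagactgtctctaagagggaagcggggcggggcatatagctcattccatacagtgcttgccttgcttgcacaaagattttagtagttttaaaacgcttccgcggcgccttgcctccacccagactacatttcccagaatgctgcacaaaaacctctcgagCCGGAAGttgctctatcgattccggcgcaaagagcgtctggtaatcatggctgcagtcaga
Mrpl42 (chr10:95501900-95502199, minus strand): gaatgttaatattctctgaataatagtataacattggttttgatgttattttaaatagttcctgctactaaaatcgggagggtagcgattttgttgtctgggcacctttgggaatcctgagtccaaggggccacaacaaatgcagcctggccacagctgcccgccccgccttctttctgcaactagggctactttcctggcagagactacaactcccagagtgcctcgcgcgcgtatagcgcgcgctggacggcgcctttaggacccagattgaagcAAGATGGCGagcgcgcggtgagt
Mrps18b (chr17:35916391-35916690, minus strand): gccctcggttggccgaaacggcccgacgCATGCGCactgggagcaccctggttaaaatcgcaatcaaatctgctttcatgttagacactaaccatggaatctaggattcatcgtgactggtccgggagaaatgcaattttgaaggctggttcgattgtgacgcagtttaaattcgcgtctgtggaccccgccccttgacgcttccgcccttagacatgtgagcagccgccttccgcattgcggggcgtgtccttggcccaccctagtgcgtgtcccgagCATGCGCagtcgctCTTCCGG
Mrpl12 (chr11:120484387-120484686, plus strand): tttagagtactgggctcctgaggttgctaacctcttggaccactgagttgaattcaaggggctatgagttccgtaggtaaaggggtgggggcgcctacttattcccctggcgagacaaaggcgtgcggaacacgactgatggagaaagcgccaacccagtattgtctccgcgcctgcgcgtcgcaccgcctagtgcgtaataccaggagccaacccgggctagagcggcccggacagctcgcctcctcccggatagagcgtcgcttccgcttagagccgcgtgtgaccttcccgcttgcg
Mrpl52 (chr14:54426659-54426958, plus strand): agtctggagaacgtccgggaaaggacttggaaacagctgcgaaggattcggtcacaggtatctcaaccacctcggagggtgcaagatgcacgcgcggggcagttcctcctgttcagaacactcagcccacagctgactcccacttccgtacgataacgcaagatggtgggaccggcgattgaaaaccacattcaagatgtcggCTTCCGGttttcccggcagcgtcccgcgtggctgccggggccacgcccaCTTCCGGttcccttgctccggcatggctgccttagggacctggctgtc
Mrps22 held 1 ETS match, Mrpl42 held 1 YY1 match, Mrps18b held 2 NRF1 matches and 1 ETS match, Mrpl52 held 2 ETS matches, and Mrpl12 held none of these letters.

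Of the 78 genes, 69 had a promoter in the RefSeq table, some of them several. A gene was counted where any of its promoters held the letters. ETS letters stood in promoters of 26 of those 69 genes (37.7%), against 9.93% of all 27025 genes in the table. Among the 11066 of these tested in AE9a cells the share was 18.9%. YY1 letters stood in 8 of 69 (11.6%), against 1.64% of all and 3.32% of tested genes, and NRF1 letters in 8 of 69 (11.6%), against 4.41% and 7.43%. E-box letters stood in 5 of 69 (7.25%), against 8.09% of all and 11.3% of tested genes. Of the 59 genes with a promoter that rose under C16 in AE9a cells, 22 had ETS letters, as did 4 of the 10 that did not rise. A match describes letters in a window and does not show that a factor binds there. By the positions in the count tables (GRCm39), 35 of the 78 genes (44.9%) had the start of a gene on the opposite strand within 1000 bases of their own start, against 24.9% of 14697 genes tested in AE9a cells that had a position.

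Levels between genes are compared in TPM, which divides by exon length. The highest mean over 18 libraries was that of Mrpl33, a small protein of the large subunit, at 314 TPM. Mrpl12, the stalk protein to which translation factors dock, followed with 225 TPM, then Mrps18c with 177, Mrpl42 with 163 and Mrps21 with 162 TPM. The lowest were Mrps10 with 15.7, Mrpl4 with 14.3, Mrps25 with 11.6, Mrpl48 with 10.6 and Mrpl14 with 6.93 TPM, and the median gene had 54.5 TPM. The lowest genes had long exons, 5073, 8452, 6076, 5203 and 7525 bases in that order, so their place depends on this division. By CPM they ranked 46, 15, 55, 64 and 69 of 78. The ranges over all 18 libraries of all 77 neighbouring pairs in the TPM order touched. These ranges hold differences between the 6 groups as well as between replicates, and they do not compare genes within a library. Within a gene, the highest library was 1.36 times (Mrps21) to 3.29 times (Mrpl52) the lowest in CPM, with a median of 1.90 times. The highest of its 18 libraries was an AE9a C16 library for 68 genes and an AE9a DMSO library for 0.

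**Figure D1:**
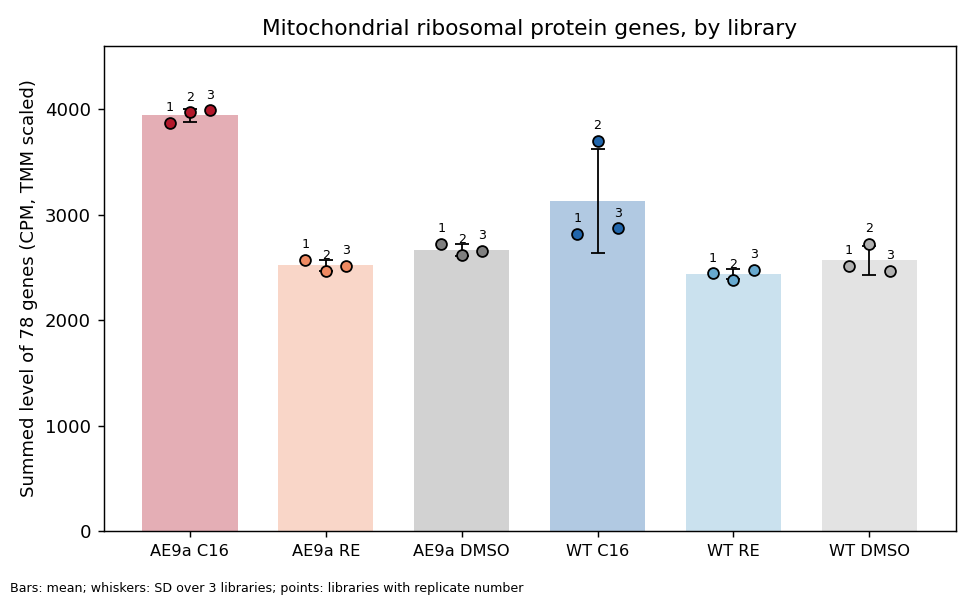
Summed level of the 78 genes in CPM (vertical axis) in each of 18 libraries (points, with replicate number), with the mean (bar) and SD (whiskers, n = 3) of each group on the horizontal axis. The 3 AE9a C16 libraries sit between 3871 and 3988 CPM, above every other library, and WT C16 replicate 2 at 3701 CPM comes next.

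Most mitochondrial ribosomal protein genes rose under C16 in AE9a cells. Of the 78, 68 rose and 1 fell, with a median log2 change of 0.55, against a median of 0.0027 over all 14704 genes tested. Over all genes 33.1% rose and 33.2% fell. The summed level was 3871, 3969 and 3988 CPM in the C16 libraries, against 2725, 2617 and 2658 CPM in the DMSO libraries. All 3 C16 libraries lay above all 3 DMSO libraries. The means were 3943 ± 62.5 CPM under C16 and 2667 ± 54.6 CPM under DMSO (SD, n = 3 each). Tests were edgeR quasi-likelihood F tests with p adjusted over all genes tested by Benjamini-Hochberg, and a gene is called changed at an adjusted p under 0.05.

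Genes of both subunits rose. In the small subunit 25 of 26 genes rose and 0 fell, with a median log2 change of 0.60. In the large subunit 43 of 51 rose and 1 fell, with a median of 0.55. Of the genes with a bacterial counterpart 42 of 48 rose, and of those found only in mitochondria 26 of 29 rose and 1 fell, with medians of 0.54 and 0.57. The ratio of the summed large-subunit to small-subunit level was 2.22 to 2.25 in AE9a C16 libraries, against 2.28 to 2.33 in AE9a DMSO libraries. For 72 genes every C16 library lay above every DMSO library, as it did for 38.8% of all genes tested.

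The largest rise was that of Mrps22 (chromosome 9, 98470783 to 98483732, GRCm39, as are all gene positions here), a small-subunit protein found only in mitochondria whose variants cause mitochondrial disease in humans. It had 42.4, 43.8 and 41.2 CPM under C16, against 23.7, 21.3 and 22.3 CPM under DMSO. The groups did not overlap, and the log2 change was 0.87 ± 0.072 (SE, edgeR, adjusted p = 7.53e-06).

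Mrpl12 (chromosome 11, 120375463 to 120379580), which forms the stalk of the large subunit and has also been found bound to the mitochondrial RNA polymerase, had 143, 146 and 144 CPM under C16. Under DMSO it had 83.2, 76.7 and 78.4 CPM, and the log2 change was 0.81 ± 0.065 (adjusted p = 6.44e-06). Its C16 libraries lay close together and far above those of DMSO.

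Mrps5 (chromosome 2, 127429346 to 127445906), the counterpart of bacterial S5 at the entry of the messenger RNA, had 77.2, 77.0 and 75.0 CPM under C16, against 46.5, 38.7 and 42.2 CPM under DMSO. Its log2 change was 0.80 ± 0.063. Mrps10, the counterpart of bacterial S10, had 50.4, 54.7 and 51.0 CPM under C16, against 30.9, 28.3 and 28.1 CPM under DMSO. The C16 libraries of both genes were all above the DMSO libraries. The other 4 of the 8 largest rises were Mrpl42 (0.77), a large-subunit protein found only in mitochondria, Mrpl47 (0.74), the counterpart of bacterial L29 near the exit of the tunnel, Mrpl19 (0.74), the counterpart of bacterial L19, and Mrps28 (0.73), a small-subunit protein. Exons of Mrpl19 share 1145 bases with Gcfc2 on the opposite strand, and counting ignored strand, so its value is uncertain.

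**Figure D2:**
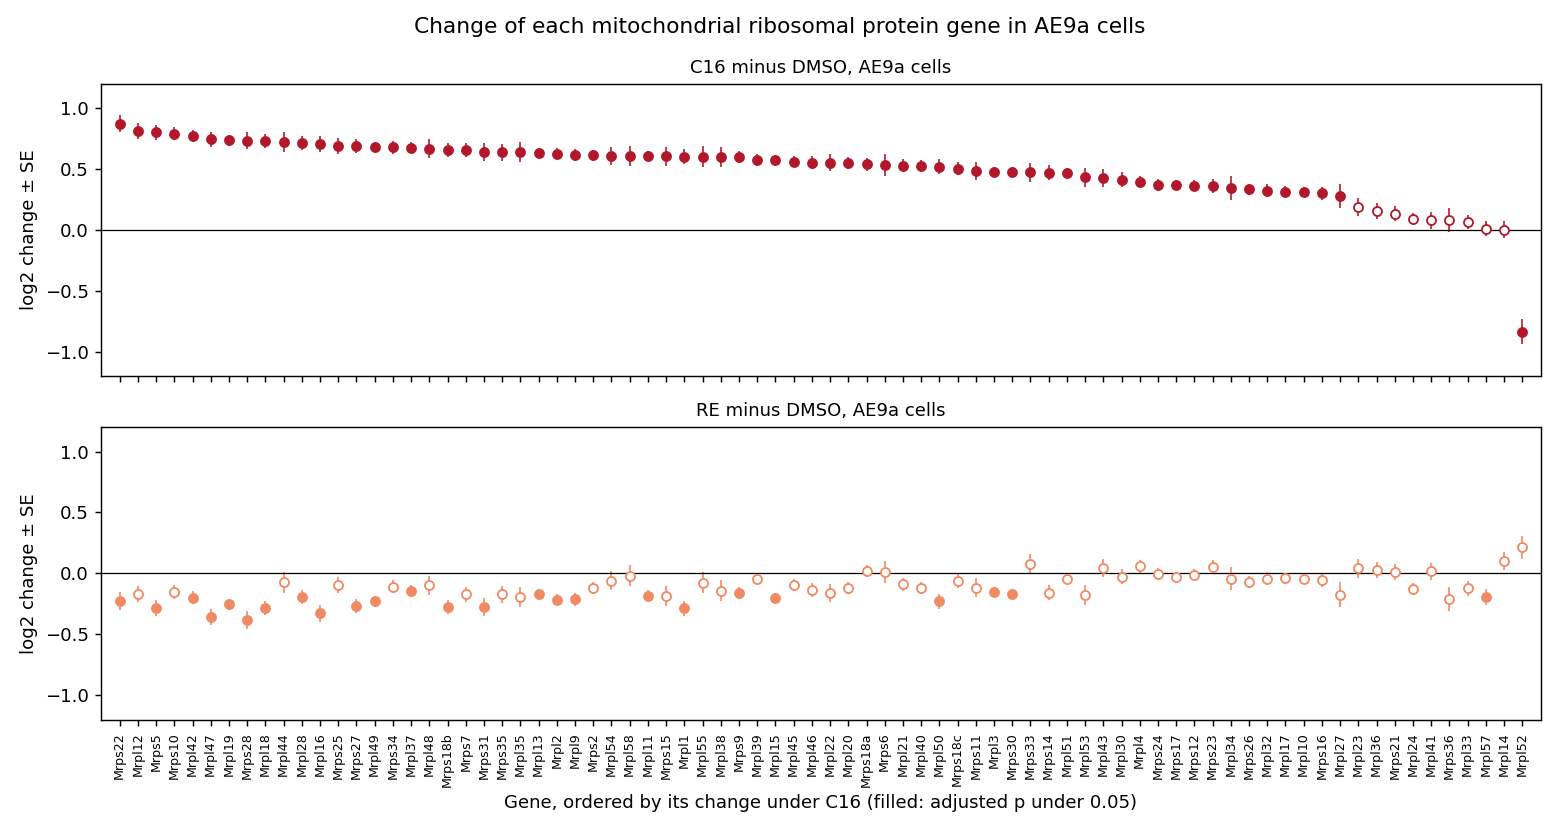
Fitted log2 change ± SE of each of the 78 genes (horizontal axis, ordered by the change under C16) in AE9a cells, C16 minus DMSO above and RE minus DMSO below; filled points have an adjusted p under 0.05. Under C16 the points lie above 0 for 77 genes and Mrpl52 alone lies below, while under RE 66 lie below 0.

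Genes chosen for their role in the ribosome rose as well. Mrpl3, next to the site where peptide bonds form, rose by 0.48 ± 0.038, and Mrpl11, at the base of the stalk, by 0.61 ± 0.045 on the log2 scale. Mrpl58, a peptidyl-tRNA hydrolase that rescues stalled ribosomes, rose by 0.61 ± 0.081, and Mrpl44, a protein related to RNase III, by 0.72 ± 0.083. Of the small subunit, Mrps12 in the decoding centre rose by 0.36 ± 0.048, Mrps16 by 0.30 ± 0.055 and Mrps35 by 0.64 ± 0.069. All 7 had no overlap between C16 and DMSO libraries.

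Mrps18a, Mrps18b and Mrps18c are 3 genes for versions of the protein that bacteria have once, as S18. Mrps18a had 36.7, 37.2 and 34.3 CPM under C16, against 23.4, 24.3 and 24.3 CPM under DMSO. Mrps18b had 55.4, 53.1 and 53.7 CPM under C16, against 34.9, 30.9 and 34.0 CPM under DMSO. Mrps18c had 49.3, 49.5 and 48.2 CPM under C16, against 35.6, 33.8 and 31.0 CPM under DMSO. All 3 rose, by 0.54 ± 0.052, 0.65 ± 0.055 and 0.50 ± 0.055 on the log2 scale. Mrps30, counted in the large subunit like Mrps18a, rose by 0.47 ± 0.040.

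Apart from Mrpl52, 9 genes did not pass the test under C16 in AE9a cells. They were Mrpl14 (log2 change 0.0023), Mrpl57 (0.010), Mrpl33 (0.064), Mrpl41 (0.080), Mrps36 (0.080), Mrpl24 (0.088), Mrps21 (0.13), Mrpl36 (0.16) and Mrpl23 (0.19). They include Mrpl33, the gene of highest TPM, and Mrpl14, the gene of lowest. Mrpl33 had 57.4, 64.0 and 68.8 CPM under C16, against 58.7, 58.3 and 58.8 CPM under DMSO. Mrpl14, the counterpart of bacterial L14 at the face between the subunits, had 18.2, 20.04 and 21.7 CPM under C16, against 19.7, 19.3 and 18.9 CPM under DMSO. In both genes the C16 libraries fell on either side of those of DMSO. Mrps36, whose protein belongs to another complex, had 25.8, 23.6 and 27.8 CPM under C16, against 25.0, 23.5 and 22.2 CPM under DMSO. Mrpl24, Mrps21, Mrpl36 and Mrpl23 had every C16 library above every DMSO library, with adjusted p from 0.0527 for Mrpl23 to 0.144 for Mrpl24. The median exon length of the 9 genes was 937 bases, against 1544 bases for the 68 that rose.

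Mrpl52 (chromosome 14, 54664366 to 54667207, plus strand), a large-subunit protein found only in mitochondria, went the other way. It had 14.9, 19.5 and 15.4 CPM under C16, against 26.9, 30.9 and 28.1 CPM under DMSO, with no overlap. Its log2 change was −0.83 ± 0.10 (adjusted p = 7.47e-05). Mmp14, a membrane-bound matrix metalloprotease, starts 1847 bases beyond the end of Mrpl52 on the same strand, and the exons of the genes do not overlap. Mmp14 was looked at after the values of Mrpl52 were seen.

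Mmp14 had 17.2, 16.6 and 9.09 CPM in AE9a cells under C16, 202, 220 and 221 CPM under RE, and 140, 168 and 132 CPM under DMSO. Its log2 change under C16 was −3.40 ± 0.20 (adjusted p = 2.14e-06). Mrpl52 had 36.0, 33.0 and 33.5 CPM under RE, above its DMSO libraries, with a log2 change of 0.21 that did not pass the test (adjusted p = 0.136). In AE9a cells both genes thus stood lowest under C16 and highest under RE. In WT cells Mmp14 stayed between 7.38 and 25.3 CPM and Mrpl52 between 10.96 and 22.7 CPM. Under C16 in WT cells Mrpl52 had 22.3, 15.3 and 22.7 CPM, against 18.9, 10.96 and 16.3 CPM under DMSO. Mmp14 there had 10.7, 7.38 and 12.7 CPM, against 20.9, 12.4 and 17.0 CPM under DMSO. The log2 levels of the genes correlated at 0.967 over the 9 AE9a libraries, at −0.165 over the 9 WT libraries and at 0.844 over all 18. These values hold the differences between groups, and in WT cells also those of replicate 2. Joint movement was thus not seen in WT cells, but its absence there is not shown. Whether fragments or transcripts of one gene enter the count of the other was not tested.

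**Figure D3:**
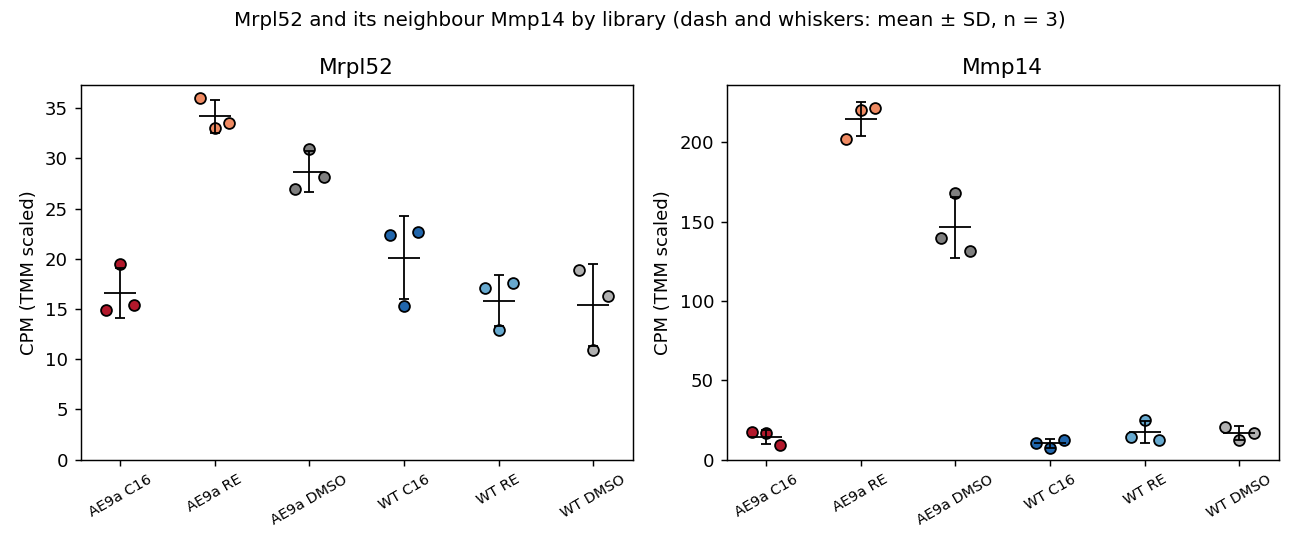
Level in CPM (vertical axis) of Mrpl52 (left) and of Mmp14, the next gene downstream (right), in each library of the 6 groups (points), with mean ± SD (n = 3). In AE9a cells both are lowest under C16, 14.9 to 19.5 CPM for Mrpl52 and 9.09 to 17.2 CPM for Mmp14.

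Most of the other listed protein genes of mitochondrial translation rose with the members in AE9a cells under C16. Mitochondrial rRNA, the RNA of the same ribosome, did not. It held 0.0977, 0.0971 and 0.0810% of fragments under C16, against 0.106, 0.107 and 0.105% under DMSO. Under RE it held 0.118, 0.117 and 0.126%. These shares were not tested. Of 5 further ribosomal proteins with other names, 5 rose, with Chchd1 at 0.78, Gadd45gip1 at 0.76 and the GTP-binding protein Dap3 at 0.69 on the log2 scale. Of 15 translation factors 12 rose and 0 fell, led by the elongation factors Gfm1 (0.84), Tufm (0.83) and Tsfm (0.69). Of 17 mitochondrial aminoacyl-tRNA synthetases, which load tRNAs, 16 rose and 0 fell, led by Yars2 (0.95). Of 25 genes for ribosome assembly and rRNA modification 16 rose and 2 fell, led by the methyltransferase Mrm3 (0.90) and the RNA-binding protein Fastkd2 (0.78).

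Of 12 genes of mitochondrial protein import 12 rose, with a median log2 change of 0.60, led by the chaperone Hspa9 (0.89) and the outer membrane channel Tomm40 (0.86). Of 11 genes for copying and transcribing mitochondrial DNA 8 rose and 1 fell, led by Ssbp1 (0.66) and Lrpprc (0.65). Of the 13 proteins that the mitochondrial genome encodes 8 rose and 0 fell, with a median of 0.28 and the largest change in ND3 (0.60). Cytosolic ribosomal protein genes, which build the other ribosome of the cell, were mixed, with 25 of 80 higher, 16 lower and a median of 0.048. The members' median of 0.55 was above those of the assembly, factor, synthetase, DNA and mitochondrially encoded lists and below those of the import list and of the 5 other ribosomal proteins. These differences between lists were not tested.

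Of 10 regulators of mitochondrial genes 8 rose, 1 fell and Esrra, a nuclear receptor, did not pass the test (−0.10). Myc, a growth-promoting transcription factor, had 275, 293 and 331 CPM under C16, against 205, 198 and 175 CPM under DMSO, and rose by 0.59 ± 0.09. Pprc1 and Ppargc1b, coactivators, rose by 0.48 and 0.60. Nrf1, Gabpa, Gabpb1, Yy1 and Hcfc1, factors or cofactors of nuclear genes for mitochondria, rose by 0.22, 0.33, 0.34, 0.27 and 0.36. Ppargc1a, another coactivator, had 0.155, 0.41 and 0.687 CPM under C16, against 1.19, 1.92 and 1.59 CPM under DMSO, a log2 change of −1.96 ± 0.41 at very low counts.

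Markers of blood cell types moved in the same libraries. Erythroid markers, 9 of 10 of which fell, summed to 34.0, 24.6 and 2.48 CPM under C16, against 535, 699 and 609 CPM under DMSO in AE9a cells. Mast cell and basophil markers, 8 of 8 of which fell, summed to 198 to 1682 CPM under C16, against 7554 to 10129 CPM under DMSO. Primary granule genes, 4 of 4 of which rose, summed to 8716 to 11080 CPM under C16, against 2600 to 2781 CPM under DMSO. Neutrophil markers, 6 of 8 of which fell, summed to 1435 to 1835 CPM under C16, against 3147 to 3627 CPM under DMSO. Megakaryocyte markers, 6 of 8 of which fell, summed to 60.4 to 156 CPM under C16, against 260 to 379 CPM under DMSO. Stem and progenitor markers summed to 423 to 502 CPM under C16, against 973 to 1298 CPM under DMSO, although 3 of the 7 rose and 1, Kit, fell. Kit had 279, 324 and 221 CPM under C16, against 858, 1191 and 977 CPM under DMSO. The part of these in the rise of the ribosomal protein genes was not tested.

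Part of the group fell under RE in AE9a cells, by small amounts. Of 78 genes 25 fell and 0 rose, with a median log2 change of −0.12, against −0.0081 over all genes tested. Over all genes 16.8% fell and 12.2% rose. The summed level was 2573, 2470 and 2516 CPM under RE, against 2725, 2617 and 2658 CPM under DMSO. All RE libraries lay below all DMSO libraries, by less than the distance of C16 libraries from them. For 28 genes every RE library lay below every DMSO library, as for 21.5% of all genes. For 3 genes every RE library lay above, and the matching share of all genes was not counted.

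The 5 largest falls were those of Mrps28, Mrpl47, Mrpl16, Mrpl1 and Mrps5. Mrps28 had 10.97, 10.5 and 10.7 CPM under RE, against 12.98, 13.4 and 14.4 CPM under DMSO (log2 −0.38 ± 0.072, edgeR, adjusted p = 0.00533). Mrpl47 had 15.97, 15.9 and 15.9 CPM under RE, against 21.3, 19.3 and 19.0 CPM under DMSO (log2 −0.36 ± 0.063, adjusted p = 0.00405). Mrpl16, the counterpart of bacterial L16, had 26.0, 21.9 and 23.3 CPM under RE, against 29.7, 28.3 and 28.9 CPM under DMSO (log2 −0.33). In none of these did the groups overlap. Mrpl1, of the other stalk of the large subunit, fell by 0.29 and Mrps5 by 0.28 on the log2 scale.

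Among the genes chosen by role, Mrps18b (−0.28), Mrps22 (−0.23), Mrpl11 (−0.18), Mrps30 (−0.17) and Mrpl3 (−0.15) passed the test, Mrps22 with overlapping libraries and an adjusted p of 0.048. Mrpl12 (−0.17), Mrps35 (−0.17), Mrpl44 (−0.074), Mrps18c (−0.063), Mrps16 (−0.057), Mrpl58 (−0.018), Mrps12 (−0.010) and Mrps18a (0.020) did not, nor did Mrps36 (−0.21). Of the subunits, 18 of 51 large-subunit genes and 7 of 26 small-subunit genes fell.

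Of the other lists under RE, 8 of 12 import genes, 5 of 17 synthetases, 4 of the 5 other ribosomal proteins and 2 of 15 translation factors fell, and 0 in these 4 lists rose. Of regulators, Myc had 160, 158 and 136 CPM under RE, against 205, 198 and 175 CPM under DMSO, and fell by 0.38 ± 0.09. Pprc1, Nrf1, Hcfc1, Gabpb1 and Yy1 fell by 0.25, 0.23, 0.23, 0.22 and 0.15, while Ppargc1a (1.40) and Esrra (0.18) rose. Cytosolic ribosomal protein genes had 7 higher and 2 lower of 80. Primary granule genes, 4 of 4 lower, summed to 1326 to 1532 CPM under RE, against 2600 to 2781 CPM under DMSO.

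Other marker lists also separated RE from DMSO in AE9a cells. Erythroid markers, 4 of 10 lower by the test, summed to 373 to 475 CPM under RE, against 535 to 699 CPM under DMSO. Monocyte and macrophage markers, 5 of 7 lower, summed to 361 to 439 CPM under RE, against 554 to 688 CPM under DMSO. Neutrophil markers, 3 of 8 higher and 1 lower, summed to 3693 to 5153 CPM under RE, against 3147 to 3627 CPM under DMSO. These lists each had every RE library on one side of every DMSO library. Mast cell and basophil markers summed to 13330 to 15630 CPM under RE, against 7554 to 10129 CPM under DMSO, and megakaryocyte markers to 436 to 557 CPM under RE, against 260 to 379 CPM under DMSO, with no single gene of either list past the test. Stem and progenitor markers, 1 of 7 higher and 3 lower, summed to 1450 to 1711 CPM under RE, against 973 to 1298 CPM under DMSO. The part of these lists in the members' fall was not tested.

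The count of 25 depends on single libraries and on the fit. It was 12 without AE9a DMSO replicate 1, 15 without AE9a RE replicate 2, and 0 when all 18 libraries shared 1 estimate of spread. The share of all genes that fell was 9.66%, 9.94% and 1.03% in those 3 fits, against 16.8% in the fit reported.

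The compounds were also set against each other in AE9a cells, over 1 pair of compounds. With C16 against RE, 72 genes were higher and 1 was lower, with a median log2 difference of 0.66, while 37.5% of all genes tested were higher and 37.2% lower. The summed level was 3943 ± 62.5 CPM under C16 and 2519 ± 51.4 CPM under RE (SD, n = 3 each). The largest differences were in Mrps28 (1.11 ± 0.071), Mrpl47 (1.10 ± 0.062), Mrps22 (1.10 ± 0.073), Mrps5 (1.08 ± 0.064) and Mrpl16 (1.03 ± 0.069), each with no overlap of libraries. Mrpl52 was lower under C16 (−1.05 ± 0.10). Mrpl14, Mrpl41, Mrps21, Mrpl36 and Mrpl23 did not pass the test. Doses and times of C16 and RE are not given, so it cannot be said whether they were matched.

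**Figure D4:**
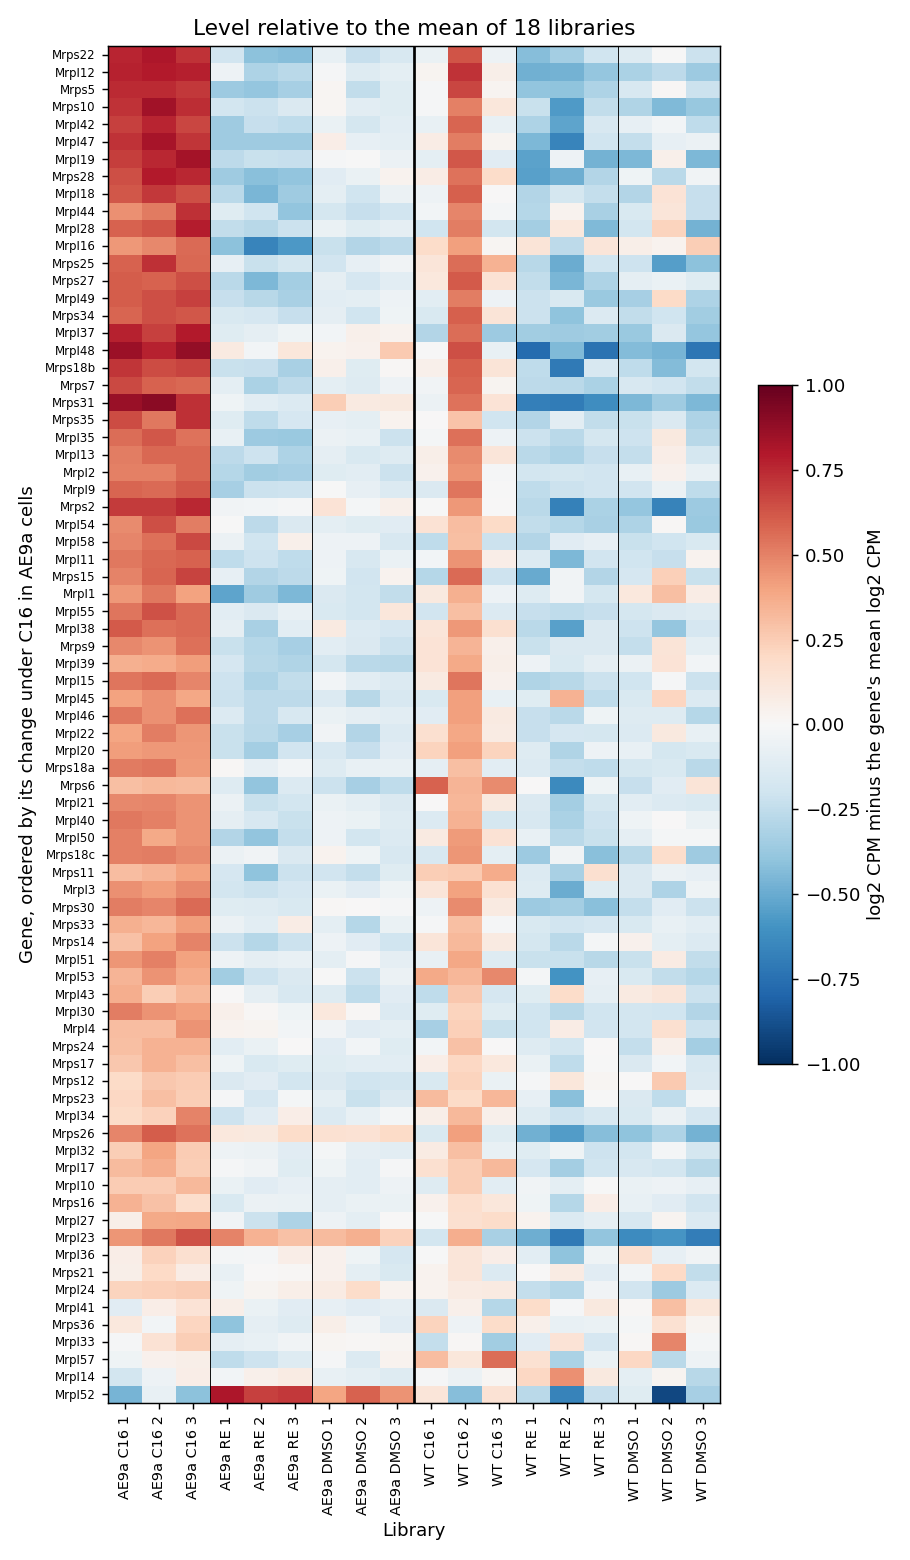
Log2 CPM of each of the 78 genes (rows, ordered by the change under C16 in AE9a cells) minus its mean over 18 libraries, in each library (columns); red is above and blue below the gene's mean, with colours saturating at 1 log2 unit. The 3 AE9a C16 columns and the column of WT C16 replicate 2 are red for most genes, and Mrpl52 in the last row is reversed.

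In WT cells the same genes leaned upward under C16, but few passed the test. Mrps25 and Mrpl17 rose and 0 fell, with a median log2 change of 0.30 over the members, against 0.011 over all 15046 genes tested. Over all genes 0.957% rose and 2.15% fell. The summed level was 2821, 3701 and 2871 CPM in the C16 libraries, against 2514, 2723 and 2467 CPM in the DMSO libraries. All C16 libraries lay above all DMSO libraries, and replicate 2 lay well above the others. It was the highest of the 9 WT libraries for 62 of the 78 genes.

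Mrps25 (chromosome 6, 92146493 to 92161004), a small-subunit protein found only in mitochondria, had 29.6, 40.1 and 34.6 CPM under C16, against 23.6, 18.6 and 20.5 CPM under DMSO. Its log2 change was 0.74 ± 0.15 (edgeR, adjusted p = 0.0433). Of its exon bases 58.4% lie over exons of Nr2c2 on the opposite strand, so its count is uncertain. Mrpl17, the counterpart of bacterial L17 at the exit of the tunnel, had 60.9, 64.6 and 68.1 CPM under C16, against 48.8, 48.0 and 45.01 CPM under DMSO, a log2 change of 0.46 ± 0.085 (adjusted p = 0.036). For both, and for 36 of the 78 in all, every C16 library lay above every DMSO library, as for 14.3% of all genes tested.

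Mrpl12 had 85.8, 139 and 87.5 CPM under C16, against 67.5, 69.9 and 65.5 CPM under DMSO, with no overlap but a log2 change of 0.63 ± 0.18 and an adjusted p of 0.0958. Mrps22 had 23.8, 38.6 and 24.1 CPM under C16, against 22.9, 24.9 and 21.5 CPM under DMSO, so that replicate 2 alone stood clear of the DMSO libraries. Paired by replicate number, the summed level under C16 was 1.12, 1.36 and 1.16 times that under DMSO for replicates 1, 2 and 3. In these pairs 64, 72 and 69 of the 78 genes were higher under C16, and the matching shares of all genes were not counted. With replicate number as a block 22 genes were higher and 1 was lower, while 10.4% of all 15046 genes were higher and 2081 were lower. Without replicate 2 of all 3 WT groups 37 were higher and 2 lower, while 20.8% of all 15198 genes were higher and 3173 were lower. The count was 0 without WT C16 replicate 1 or 3, or without any 1 of the WT DMSO replicates. Over all genes, 0.0% passed in either direction without WT C16 replicate 1, WT C16 replicate 3 or WT DMSO replicate 1, 0.0129% without WT DMSO replicate 3 and 1.64% without WT DMSO replicate 2. Myc also differed most in replicate 2, with 164, 272 and 156 CPM under C16, against 145, 164 and 145 CPM under DMSO.

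Markers of cell types differed between the same WT libraries. Monocyte and macrophage markers, 3 of 7 of which fell, summed to 383, 662 and 385 CPM under C16, against 817, 1504 and 709 CPM under DMSO, with no overlap. Megakaryocyte markers summed to 9585, 316 and 10723 CPM under C16, against 2926, 393 and 2598 CPM under DMSO, so that replicates 1 and 3 were higher under C16 and replicate 2 was not. Mast cell and basophil markers summed to 2093, 774 and 1998 CPM under C16, against 2830, 1340 and 3128 CPM under DMSO. No single gene of the megakaryocyte and mast cell lists passed the test. The part of these in the members' change was not tested.

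Under RE in WT cells 0 of the 78 genes passed edgeR's test and 0 passed DESeq2's. Mrpl14 had a log2 change of 0.37 with an adjusted p of 0.976 by edgeR. Over all genes 0.0266% passed edgeR's test in either direction, and DESeq2 called 40 higher and 31 lower of 16695. The summed level was 2442, 2384 and 2475 CPM under RE, against 2514, 2723 and 2467 CPM under DMSO, with overlap. The median log2 change was −0.077. By replicate number, 44, 69 and 39 of 78 genes were lower under RE, and the matching shares of all genes were not counted.

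The genotypes differed little in these genes under DMSO. The summed level was 2667 ± 54.6 CPM in AE9a cells and 2568 ± 136 CPM in WT cells (SD, n = 3 each). Of 78 genes 7 were higher and 3 lower in AE9a cells, with a median log2 difference of 0.037, while 12.9% of all 15809 genes tested were higher and 13.8% lower. Without replicate 2 of the 3 WT groups 23 were higher and 3 lower, while 24.8% of all 16127 genes were higher and 4169 were lower. Markers of cell types differed too. Erythroid markers, 7 of 10 higher, summed to 535 to 699 CPM in AE9a cells under DMSO, against 12.6 to 38.0 CPM in WT cells. Mast cell and basophil markers, 6 of 8 higher, summed to 7554 to 10129 CPM in AE9a cells, against 1340 to 3128 CPM in WT cells. Stem and progenitor markers summed to 973 to 1298 CPM in AE9a cells, against 199 to 347 CPM in WT cells, with Kit higher and 5 of the 7 lower. The part of these in the members' differences was not tested.

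The largest differences were in Mrpl23 and Mrpl52. Mrpl23, the counterpart of bacterial L23 at the exit of the tunnel, had 18.03, 18.5 and 17.0 CPM in AE9a cells under DMSO, against 9.38, 9.63 and 8.97 CPM in WT cells (log2 0.94 ± 0.15, edgeR, adjusted p = 0.000324). Mrpl52 had 26.9, 30.9 and 28.1 CPM in AE9a cells under DMSO, against 18.9, 10.96 and 16.3 CPM in WT cells (log2 0.90 ± 0.19, adjusted p = 0.00344). The genotypes did not overlap in either gene. Mmp14 beside Mrpl52 was higher in AE9a cells too, at 146 ± 19.0 CPM against 16.8 ± 4.25 CPM in WT cells. Mrpl48 (0.65), Mrps31 (0.56) and Mrps26 (0.56), all found only in mitochondria, and Mrps2 (0.52) and Mrpl24 (0.33), counterparts of bacterial S2 and L24, were also higher in AE9a cells, while Mrpl16 (−0.38), Mrpl1 (−0.36) and Mrpl39 (−0.26) were lower. Of the 13 mitochondrially encoded proteins 6 were lower in AE9a cells and 0 higher, with a median of −0.42.

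Whether the change under C16 differed between the genotypes was tested as the AE9a change minus the WT change, in a fit of all 18 libraries. The difference was positive and past the threshold for 5 genes and negative for 1. The median log2 difference was 0.29, against 0.062 over all genes tested. Over all genes 4.78% were higher and 8.29% lower, 13.1% in either direction. Taken in both directions together, the count of 6 in 78 was not above the share over all genes. The 5 were Mrpl1, Mrpl16, Mrpl40, Mrpl2 and Mrpl39, all of the large subunit, and the 1 was Mrpl52.

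Mrpl1 (chromosome 5, 96357357 to 96414586) had 42.5, 45.3 and 41.5 CPM under C16 and 28.4, 27.6 and 26.5 CPM under DMSO in AE9a cells, while in WT cells it had 33.6, 40.1 and 30.3 CPM under C16 and 33.8, 38.6 and 33.0 CPM under DMSO. The AE9a libraries separated by treatment and the WT libraries did not. The difference was 0.67 ± 0.14 (edgeR, adjusted p = 0.00713). Mrpl16 differed by 0.66 ± 0.16, Mrpl40 by 0.51 ± 0.15, Mrpl2, next to the peptidyl transferase site, by 0.47 ± 0.13, and Mrpl39 by 0.44 ± 0.12. Exons of Mrpl40 share bases with Hira on the opposite strand, and its count is uncertain. Mrpl52 differed by −1.17 ± 0.27 (adjusted p = 0.0136), having 22.3, 15.3 and 22.7 CPM under C16 and 18.9, 10.96 and 16.3 CPM under DMSO in WT cells.

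The number of genes past this threshold changed with the libraries used. Without WT C16 replicate 2 it was 51, without AE9a C16 replicate 3 or WT DMSO replicate 2 it was 3, and without AE9a DMSO replicate 2, WT C16 replicate 1 or WT C16 replicate 3 it was 2. Over all genes 39.3% passed in either direction without WT C16 replicate 2, 8.55% without AE9a C16 replicate 3 and 8.51% without WT DMSO replicate 2. The share was 6.67% without AE9a DMSO replicate 2, 6.92% without WT C16 replicate 1 and 6.98% without WT C16 replicate 3. Without replicate 2 of all 3 WT groups 55 members were higher and 1 lower, while 28.9% of all 16127 genes were higher and 3382 were lower. With replicate number as a block 28 members were higher and 1 lower, while 19.4% of all 15809 genes were higher and 2743 were lower. For RE, 0 members differed between genotypes by edgeR or by DESeq2. Over all genes 0.0% passed edgeR's test in either direction, while DESeq2 called 26 higher and 9 lower of 14432.

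**Figure D5:**
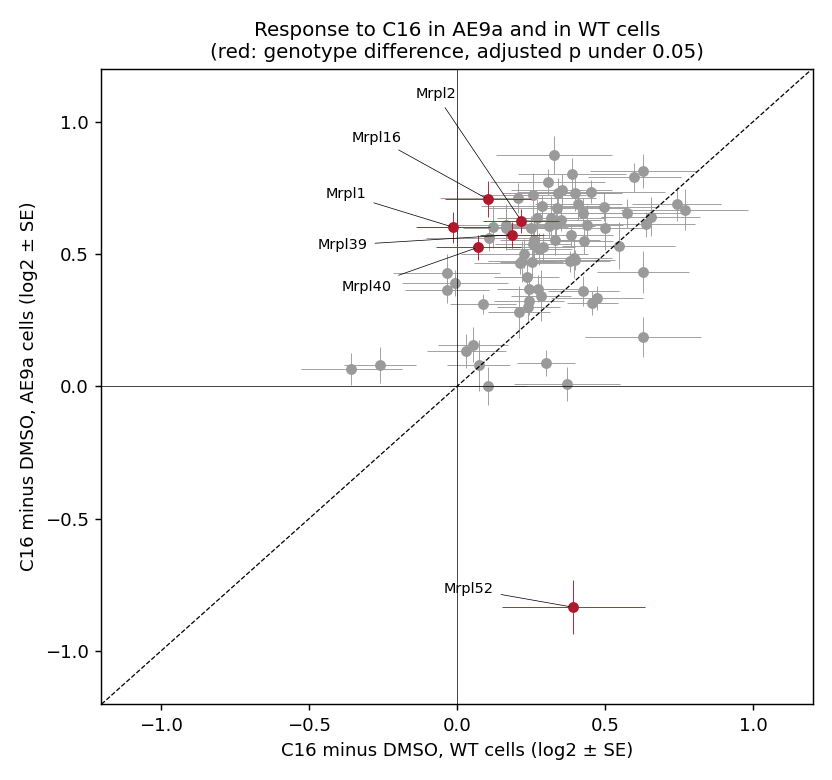
Log2 change ± SE of each of the 78 genes under C16 in AE9a cells (vertical axis) against that in WT cells (horizontal axis); the dashed line marks equal change and red marks an adjusted p under 0.05 for the genotype difference. Mrpl1, Mrpl2, Mrpl16, Mrpl39 and Mrpl40 lie above the line, and Mrpl52 lies far below it at −0.83 in AE9a cells.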

How the data were processed

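Values are raw counts of fragments per gene in a table per genotype, as deposited. The submitters' processing notes name the genome build GRCm39 and the tools HISAT2 2.1.0, featureCounts 2.0.3, fastp 0.23.2, FastQC 0.11.9 and DESeq2. Read pairs were counted over exons, ignoring strand, by featureCounts 1.6.2 per the file headers; which version was used is not known. Overlapping genes may therefore share fragments: 22 of the 78 members share exon bases with another gene. The other numeric column, exon length in bases, was also deposited by the authors and was used for TPM.

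In R 4.3.3, edgeR 4.0.16 was run with its filterByExpr filter, TMM scaling and quasi-likelihood F test, and p was adjusted by Benjamini-Hochberg (threshold 0.05). Each compound was tested in the 9 libraries of its genotype (14704 genes passed the filter for AE9a, 15046 for WT); tests across genotypes used all 18 libraries (15809 genes). The standard error is the log2 change over the square root of F. The script was tested on simulated data. Alternatives were RLE and upper-quartile scaling, no filter, DESeq2 1.42.0, replicate number as a block, 1 fit of all libraries, leaving out each library, and leaving out WT replicate 2. The members, lists and subunit roles were chosen with earlier results of these data known. Members named by values are, per comparison, the 8 largest rises and falls (5 outside C16 in AE9a cells) past the threshold with no overlap of libraries, the 5 highest and 5 lowest in TPM, and 14 members fixed by role; other genes were up to 3 per pathway list and 10 regulators. Others are named where a short count is spelled out.

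Deviations of same-numbered libraries from their group means correlated at 0.597, 0.762 and 0.598 between WT C16 and DMSO. Between WT RE and DMSO they correlated at 0.611, 0.828 and 0.609, and between WT C16 and RE at 0.514, 0.718 and 0.606. Between AE9a RE and DMSO the values were 0.305, 0.241 and 0.283. Between AE9a C16 and DMSO the correlations were 0.0618, 0.239 and 0.121, and between AE9a C16 and RE 0.109, 0.114 and 0.0872. The labels do not state pairing, and it is not shown in AE9a cells, nor for WT replicates other than 2. WT replicate 2 stood apart under every treatment, and each deviation is from a mean that includes it. Its departure alone gives the other WT replicates a shared deviation of opposite sign, so their correlations cannot show pairing. Promoters were taken from RefSeq's GRCm38.p6 table by symbol; gene positions are 1-based on GRCm39 from the count tables.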

Additional observations from a re-analysis of the deposited data

Results flagged for a closer look

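The change under C16 differed between AE9a and WT cells, by the test of the difference itself, for 6 of the 78 genes, while 13.1% of all genes passed that test. The AE9a change minus the WT change was 0.669 for Mrpl1, 0.657 for Mrpl16, 0.51 for Mrpl40, 0.465 for Mrpl2, 0.442 for Mrpl39 and −1.17 for Mrpl52 on the log2 scale. The 5 positive ones are genes of the large subunit that rose in AE9a cells and had fitted changes of −0.012 to 0.22 in WT cells. Mrpl52 fell in AE9a cells, where Mmp14 downstream of it also fell, and had a change of 0.39 in WT cells that did not pass the test. The share of the genotype in these differences cannot be told apart from that of the separate tables.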

How the results depend on the processing

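In AE9a cells, for C16 against DMSO and against RE, the counts of 69 and 73 members called stayed between 68 and 73 under every alternative run, and every named member kept its direction and call. Under RE in AE9a cells the count was 25, but 16 by DESeq2, 0 with all 18 libraries in 1 fit, and 12 to 24 leaving out each library. Over all genes DESeq2 called 1721 higher and 2129 lower of 15397 there. Under C16 in WT cells the count was 2, but 0 with no filter on low counts, 23 with the replicate block and 13 by DESeq2. It was 29 with all 18 libraries in 1 fit, 39 without WT replicate 2, and 0 to 3 leaving out each library. Over all genes, 38 were higher and 168 lower of 26543 with no filter, and 779 and 861 of 15152 by DESeq2. With all 18 libraries in 1 fit they were 1565 and 1434 of 15809, and without WT C16 replicate 2 they were 672 and 657 of 15495. For AE9a against WT cells under DMSO the count of members was 10, and 26 without WT replicate 2. For the genotype difference in the C16 response it was 6, but 3 with no filter, 29 with the replicate block and 56 without WT replicate 2. It ran from 2 to 51 leaving out each library. Over all genes 346 were higher and 1149 lower of 28108 with no filter. The causes were not tested. The replicate block changed no other count of members by more than 1.5 times. Under RE in WT cells, and for the genotype difference in RE response, the count of members was 0 under every alternative. Other genes passed in some of these fits. Without WT replicate 2, 644 of 15198 genes were higher and 575 lower under RE in WT cells. For the genotype difference 116 of 16127 were higher and 85 lower in that setting.

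Of 76 named changes in 964 refits, 845 kept direction and call, 90 lost the call, 14 gained one and 15 changed sign, all in Mrpl58 and Mrps12, which were not called. For RE in AE9a cells Mrpl58 became 0.00744 with upper-quartile scaling and 0.023 with all 18 libraries, and ran from −0.0871 to 0.0517 leaving out each library. Mrps12 became 0.00188 with RLE scaling, 0.0157 with upper-quartile scaling and 0.0289 with all 18 libraries, and ran from −0.0229 to 0.00774. For C16 in WT cells Mrpl58 became −0.0453 without WT replicate 2 and ran from −0.0383 to 0.258 leaving out each library, and Mrps12 ran from −0.155 to 0.078. By CPM in place of TPM the order of levels changes: Mrpl33 ranks 6 instead of 1 and Mrpl4 ranks 15 instead of 75. The member with the fewest fragments had 4358 over the 18 libraries.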
